A study of Mus musculus with 9 samples.

Results

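The comparison sets both ends of a time course of mouse forelimb tendon development against each other: cells of E14.5 against cells of E11.5, stages counted in embryonic days. All cells came from forelimbs of Scx-GFP embryos, in which green fluorescent protein reports the tendon gene Scx, and were sorted for GFP after trypsin dissociation. No other allele or agent is named for either stage. Total RNA was hybridized to Affymetrix Mouse Genome 430 2.0 arrays, with 3 arrays, named A, B and C, for E11.5 and 3 for E14.5, of 9 arrays in all. The remaining 3, from E12.5, entered the fit and are given beside the results. Every one of the 18193 genes with a probe set naming a single gene belongs to the comparison. They were sorted by rules on their symbols, with hand corrections. The rules use no signals, but members and lists were chosen with earlier results of these data known. The classes hold 679 genes of secreted proteins, 2181 of membrane proteins, 1063 of transcription factors, 1195 of metabolic enzymes and 1191 of other nuclear proteins, while 11884 had no class.

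Between these days the forelimb changes from a bud of dividing, patterned mesenchyme into a limb with separate cartilage, muscle and tendon. Scx, which encodes the bHLH factor scleraxis, marks tendon progenitors from early on. Tendon cells then make a secreted matrix of fibrillar collagen, small proteoglycans and glycoproteins, which reaches the outside through the secretory pathway, and they hold on to it through membrane receptors. Transcription factors of the early bud set position along the limb. Nuclear proteins of replication, mitosis and ribosome assembly serve dividing cells.

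The signals lie on a linear scale, and a change is the difference of mean log2 signal, E14.5 minus E11.5, over 3 arrays per stage. Its standard error (SE) comes from limma's fit, which pools the spread within every stage of the time course and draws on that of other genes. Signals under 22.7, the 25th percentile of all signals, were raised to that floor. Arrays raised to the floor share a value, which lowers the SE of such genes. Of the 18193 genes, 11575 were tested, namely those with 3 or more arrays above 90.6, the median signal of the data set. A gene is called where limma's adjusted p was under 0.05. Whether samples of one stage were separate litters is not stated, so the p-values measure only the spread between these samples, which may be technical. The sort used either of a pair of cell sorters, and which sorter served which sample is not given. The number of arrays limits the precision.

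Over all tested genes, 40.5% were called: 2646 (22.9%) were higher at E14.5 and 2045 (17.7%) lower. The median change was 0.00, with quartiles at -0.36 and 0.49. Because the cells are a bulk sample, fewer cells of a type and less RNA per cell cannot be told apart. Changes of at least log2 2, or 4-fold, were mostly rises: 549 genes (4.74%) rose by that much and 46 (0.397%) fell.

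The classes differed in direction. Of 362 tested secreted genes 255 rose and 12 fell, and their median change was 1.39 (quartiles 0.56 and 2.52). Of 1101 membrane genes 505 rose and 84 fell, with a median of 0.47 (quartiles 0.00 and 1.19). Transcription factor genes went both ways: 139 of 768 rose and 170 fell (median -0.10, quartiles -0.51 and 0.40). The metabolic class, with 219 of 843 higher and 120 lower, had a median of 0.09 (quartiles -0.26 and 0.50), and its share of rises was near the 22.9% of all genes. Of 1119 nuclear genes 46 rose and 535 fell (median -0.47, quartiles -0.73 and -0.17). After median centring of the arrays, which moved the median of all tested genes to -0.20, the metabolic median was -0.11 with 81 genes higher and 44 lower, and nuclear genes were 16 higher and 285 lower. Membrane genes were then 295 higher, and transcription factor genes 79 higher and 113 lower. Without E11.5 A 72 metabolic genes were lower, and without E14.5 C 78. As first given, 70.4% of tested secreted genes were higher and 47.8% of tested nuclear genes lower.

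**Figure D1:**
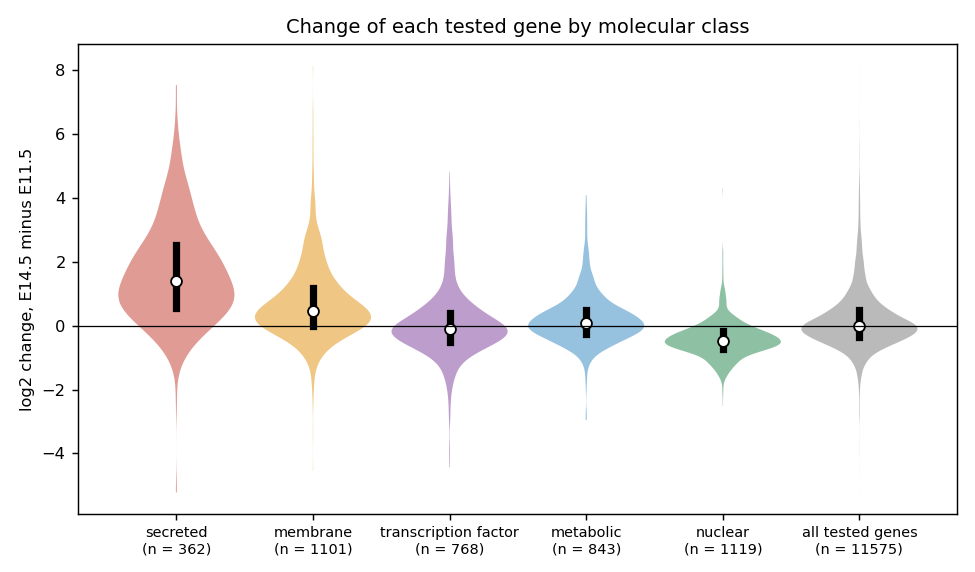
Distribution of the log2 change, E14.5 minus E11.5 (y axis), over the tested genes of each class and over all tested genes (x axis); the white point is the median and the black bar spans the quartiles. The secreted class has its median at 1.39 and the nuclear class at -0.47, against 0.00 for all tested genes.

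Secreted and membrane genes made up most large rises among the classes. Of the 549 genes that rose at least 4-fold, 126 were secreted and 133 membrane, 40 were transcription factors, 27 metabolic and 4 nuclear. Put as shares of the tested members, 34.8% of secreted, 12.1% of membrane and 0.357% of nuclear genes rose that far. Large falls had another make-up: of 46, 12 encoded transcription factors, 5 membrane proteins, 4 metabolic enzymes, 3 nuclear and 2 secreted proteins, and 20 had no class. The median called fall was -0.73 for nuclear genes and -0.71 for all genes, so nuclear falls were of the usual size.

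Not every member could be tested. The filter kept 362 of 679 secreted, 1101 of 2181 membrane, 768 of 1063 transcription factor, 843 of 1195 metabolic and 1119 of 1191 nuclear genes. Among the tested, 58 secreted and 112 membrane genes were above 90.6 in all E14.5 arrays and in no E11.5 array, so they entered through the stage in which they are high. The reverse held for 1 secreted, 9 membrane and 7 transcription factor genes, above 90.6 in all E11.5 arrays and in no E14.5 array. Restricted to genes whose mean log2 signal over the 9 arrays lay above the filter, 225 of 314 secreted genes were higher and 535 of 1107 nuclear genes lower, against 21.7% higher and 18.4% lower among all such genes. Over all members, tested or not, the median change was 0.52 for secreted, 0.20 for membrane, -0.04 for transcription factor, 0.05 for metabolic and -0.45 for nuclear genes.

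The level of a class in each array showed the same order. Relative to the mean of all tested genes in the same array, the mean log2 signal of the secreted class was -1.19, -1.20 and -1.01 at E11.5 (arrays A, B and C) and 0.52, 0.19 and 0.24 at E14.5. For the nuclear class it was 1.24, 1.29 and 1.14 at E11.5 and 0.61, 0.70 and 0.59 at E14.5. For both classes the stages did not overlap, and neither did they for the membrane class. Transcription factors did not overlap either, by a smaller margin, at -0.31, -0.21 and -0.32 and then -0.41, -0.41 and -0.38. Metabolic genes overlapped. For the secreted and nuclear classes the summed signal tells the same in linear terms. Secreted genes gave 2.01%, 2.14% and 2.30% of the signal of all 18193 genes at E11.5 and 5.92%, 4.78% and 5.38% at E14.5. The nuclear share was 16.5%, 17.1% and 16.1% at E11.5 and 11.8%, 12.7% and 11.9% at E14.5. Membrane genes went from 5.60% ± 0.168 to 7.53% ± 0.313 (SD, n = 3). Transcription factors overlapped by this measure, at 5.07%, 5.21% and 4.93% and then 5.01%, 4.79% and 4.86%. Metabolic genes stood at 8.76% ± 0.387 and 8.60% ± 0.235 (SD, n = 3), a difference within the spread of the arrays.

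**Figure D2:**
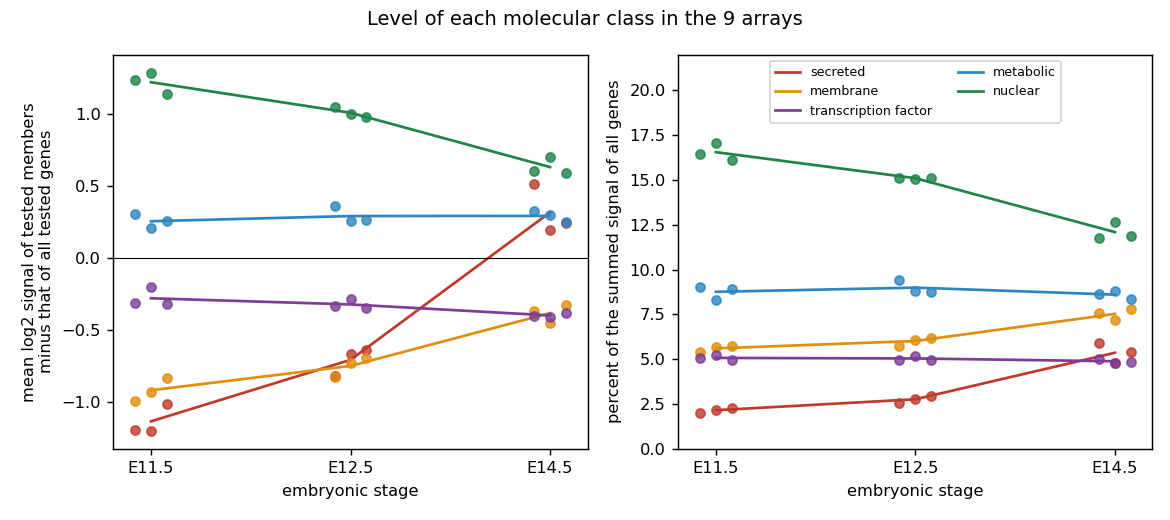
Level of each class in the 9 arrays by embryonic stage (x axis), as the mean log2 signal of tested members minus that of all tested genes (left) and as percent of the summed signal of all genes (right); points are arrays and lines join the stage means. The secreted class goes from between -1.20 and -1.01 at E11.5 to between 0.19 and 0.52 at E14.5, while the nuclear class goes down.

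The course also holds 2 intervals, from E11.5 to E12.5 and from E12.5 to E14.5, of which the later spans 2 days and the earlier 1. Both intervals share the E12.5 arrays with each other and their other arrays with the whole comparison, so their values are set side by side only. The secreted class had a median of 0.46 from E11.5 to E12.5 and of 0.84 from E12.5 to E14.5. For the membrane class the medians were 0.19 and 0.30, for the nuclear class -0.14 and -0.32, for transcription factors 0.01 and -0.10, and for the metabolic class 0.11 and -0.01. The metabolic class thus had its larger median in the earlier interval. Over all tested genes 3.11% were called higher and 0.441% lower in the first interval, and 12.6% and 9.32% in the second. In the first interval 64 secreted genes were called higher and 3 nuclear genes lower, and in the second 186 and 290.

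**Figure D3:**
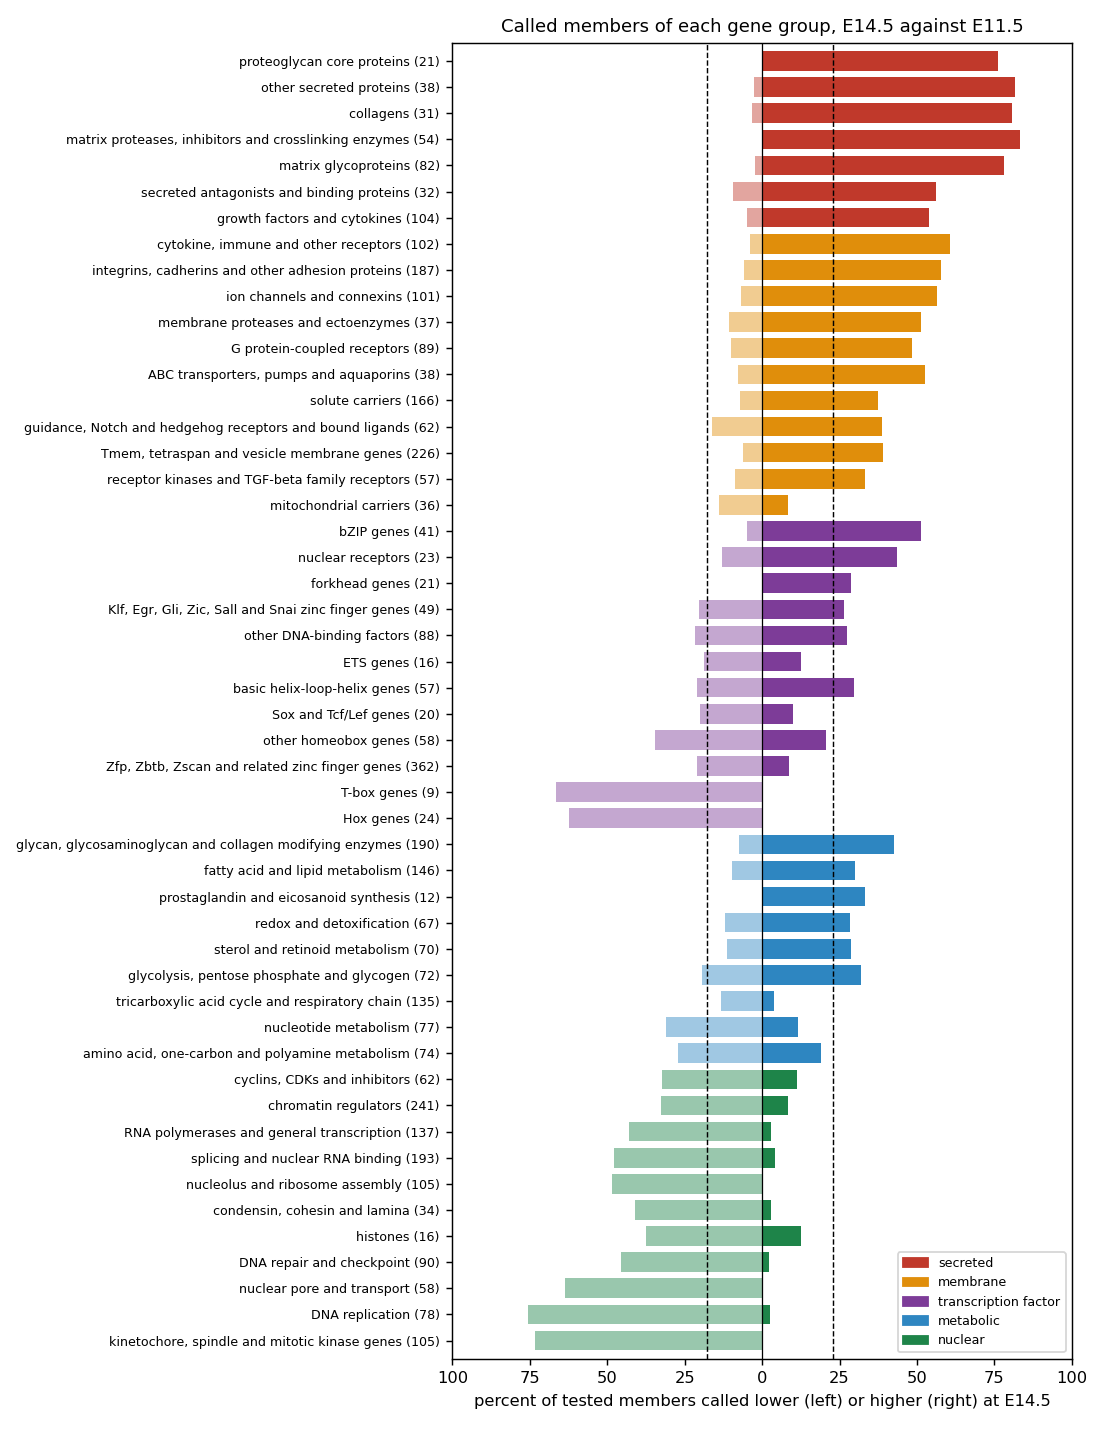
Percent of the tested members of each gene group called higher (right, full colour) or lower (left, pale) at E14.5, with the number tested in brackets and groups coloured by class. Dashed lines mark the shares among all tested genes, 22.9% higher and 17.7% lower. Secreted groups reach far to the right, replication and mitosis groups far to the left, and transcription factor groups split.

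In every group of the secreted class most tested genes rose, against 22.9% of all tested genes. Of 31 tested collagen genes 25 rose and 1 fell. Of 21 proteoglycan core protein genes 16 rose and none fell, and of 82 matrix glycoprotein genes 64 rose and 2 fell. In the group of matrix proteases, protease inhibitors and crosslinking enzymes, 45 of 54 rose and none fell. Median changes were 1.98, 2.66, 1.53 and 1.69 in that order. The rise was not particular to matrix groups: of 38 genes of other secreted proteins 31 rose and 1 fell (median 1.98). Signals to other cells moved less: of 104 growth factor and cytokine genes 56 rose and 5 fell (median 0.84), and of 32 secreted antagonists and binding proteins 18 rose and 3 fell (median 1.02).

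Aspn, the gene of asporin, a small proteoglycan of the leucine-rich family, had signals of 4.85, 20.9 and 8.24 at E11.5 and of 5037, 4102 and 3585 at E14.5. All E11.5 values lie below the floor, so the log2 change of 7.53 ± 0.32 (SE, limma adjusted p = 9.6e-07) is measured from it. Dpt, the gene of the matrix protein dermatopontin, read 33.3, 17.6 and 3.59 and then 2582, 1872 and 1893 (6.34 ± 0.28). Ecrg4, which encodes a secreted peptide precursor, and Ccn3, which encodes a matricellular CCN protein, went from 19.7 ± 17.4 to 2222 ± 1414 and from 25.9 ± 18.1 to 1503 ± 611 (SD, n = 3). For both of these the E14.5 A array was the highest, at 3855 for Ecrg4 and 2208 for Ccn3. Dpt, Ecrg4 and Ccn3 were above the filter in the E14.5 arrays only, and each had 2 E11.5 arrays at the floor. Their lowest changes under any alternative were 4.53, 4.44 and 3.98. Postn, the gene of the collagen-binding protein periostin, reached the highest signal of these risers, at 17630, 22270 and 26591, from 228, 1165 and 365. Htra1, which encodes a secreted serine protease, rose by 5.46 ± 0.34, and Col14a1, which encodes a collagen found on the surface of fibrils, by 5.16 ± 0.26.

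Growth factor and binding protein genes included strong risers too. Kitl, the gene of the ligand of the receptor Kit, read 103, 144 and 150 at E11.5 and 2911, 3049 and 3496 at E14.5, a rise of 4.59 ± 0.18 (limma adjusted p = 7.7e-07). Igfbp7, which encodes an insulin-like growth factor binding protein, rose by 4.59 ± 0.40, with 3430 in E14.5 A against 1099 and 1098 in E14.5 B and C. With the mean of all probe sets of a gene the change of Kitl was 2.89 and that of Igfbp7 1.82.

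The 12 secreted genes that fell were few and small in change, apart from 2. Shh, the gene of the signal sent by posterior limb bud margin cells, fell from 930, 1240 and 885 to 27.3, 19.9 and 31.8, next to the floor (-5.22 ± 0.35, limma adjusted p = 6.7e-06). Shh was above the filter in the E11.5 arrays only, and at E12.5 its mean signal was already 39.1. Its change was -3.47 with a higher floor and -2.65 with the mean of all probe sets. Frzb, which encodes a secreted Wnt antagonist, fell from 3287 ± 525 to 656 ± 163 (SD, n = 3; -2.34 ± 0.24). Smoc1, which encodes a calcium-binding matricellular protein, fell by 1.28 ± 0.20. Artn (-1.11 ± 0.28), a ligand gene of the GDNF family, and Chrdl1 (-0.98 ± 0.21), the gene of a BMP antagonist, followed, as did the basement membrane collagen gene Col18a1 (-0.92 ± 0.19).

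The remaining called falls of the class were named after their values were seen. They were Ccl25 (-0.84), a chemokine gene, Grem1 (-0.80), which encodes a BMP antagonist, Lama1 (-0.74), a laminin chain gene, the neurotrophin gene Bdnf (-0.55), Pdgfc (-0.49), which encodes a platelet-derived growth factor, and Apon (-1.15). Apon overlapped between the stages, was -0.17 with the higher floor, and missed the threshold under most alternatives. Without the letter A arrays the calls of Artn, Grem1 and Bdnf were lost (limma adjusted p = 0.0952, 0.141 and 0.174), and after median centring of the arrays those of Bdnf, Pdgfc and Lama1 (0.0888, 0.149 and 0.0525), with larger falls of -0.75, -0.69 and -0.94. Leaving out 1 array also ended the call of Bdnf for any array but E14.5 C, of Grem1 for E11.5 A, E11.5 C or E14.5 A, and of Pdgfc for E11.5 B, E14.5 B or E14.5 C; the adjusted p then reached 0.0991, 0.0648 and 0.0702.

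Promoters of secreted genes differed from the rest in their letters. RefSeq (GRCm38.p6) lists a single promoter, from 250 bases before to 50 after the start, for 7429 of the 11575 tested genes, and for 211 of the 362 secreted ones. The median number of CG pairs in these 300 bases was 13 for secreted genes and 22 for all tested genes. A TATAAA on the coding strand within 45 to 16 bases before the start, the usual place of a TATA box, was found in 4.74% of secreted genes and in 1.17% of all tested genes. By direction the share was 3.97% of 151 secreted genes that rose and 7.27% of 55 not called, so the share was not higher among those that rose. The 120 bases before the start are shown for the 3 secreted genes with this match that rose most, 5′ to 3′ with the match in capitals. Kitl lies on the plus strand at chr10:100015701-100015820, Nppc on the minus strand at chr1:86670574-86670693 and Dkk2 on the plus strand at chr3:132085172-132085291.
Kitl: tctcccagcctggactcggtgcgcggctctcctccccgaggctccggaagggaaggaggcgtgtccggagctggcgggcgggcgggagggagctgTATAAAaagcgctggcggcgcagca
Nppc: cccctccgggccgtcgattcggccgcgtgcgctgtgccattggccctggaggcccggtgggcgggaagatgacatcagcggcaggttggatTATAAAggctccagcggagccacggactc
Dkk2: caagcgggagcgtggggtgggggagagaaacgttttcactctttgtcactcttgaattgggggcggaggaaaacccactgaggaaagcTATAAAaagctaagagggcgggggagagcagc
The match begins 25, 29 and 32 bases before the start in Kitl, Nppc and Dkk2. Nppc, which encodes C-type natriuretic peptide, rose from 22.1 ± 13.4 to 220 ± 74.7, and Dkk2, which encodes a secreted Wnt modulator, from 943 ± 77.6 to 6603 ± 1635 (SD, n = 3; both chosen after their values were seen). Their log2 changes were 2.98 ± 0.26 and 2.78 ± 0.20, and that of Nppc was 1.23 with the higher floor. Nppc was above the filter in the E14.5 arrays only.

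Membrane protein genes rose in all of their larger groups, to different extents. Of all tested genes 22.9% were higher and 17.7% lower. Cytokine, immune and other receptors had 62 of 102 tested genes higher and 4 lower (median 0.85). Adhesion proteins, the integrins, cadherins and their like, had 108 of 187 higher and 11 lower (median 0.81), and ion channels and connexins 57 of 101 and 7 (median 0.79). Solute carriers of the plasma membrane and organelles rose in 62 of 166 cases and fell in 12 (median 0.38). Receptor kinases with the TGF-beta family receptors were closer to the background, with 19 of 57 higher and 5 lower (median 0.22). The carriers of the inner mitochondrial membrane, Slc25 genes that were counted apart from the others, had few rises, 3 of 36 or 8.33% (median 0.10). In that group 5 genes fell, or 13.9%, a share near that of all tested genes.

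Tnmd, which encodes tenomodulin, a type II membrane protein of tendon cells, had the largest change of the 5 classes. It read 42.01, 14.4 and 7.80 at E11.5 and 9398, 6005 and 8797 at E14.5 (8.15 ± 0.55, limma adjusted p = 7.1e-06), and 2 of its E11.5 arrays were below the floor. Chodl, the gene of the lectin-like membrane protein chondrolectin, read 3.35, 30.3 and 28.4 and then 2179, 2989 and 4258. Slc26a7, which encodes an anion transporter, went from 38.8 ± 21.5 to 3354 ± 444 (SD, n = 3). These genes started at or near the floor and ended among the bright probe sets, with E12.5 means between 107 and 249. Scara5, which encodes a scavenger receptor that binds ferritin, rose by 6.12 ± 0.32, and Aqp1, the gene of the water channel aquaporin 1, by 5.76 ± 0.28. Tm4sf1, a tetraspan membrane protein gene, was below the floor in every E11.5 array and read 1161, 1027 and 1115 at E14.5 (5.60 ± 0.14).

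Other membrane groups were led by receptors and channels. The adhesion G protein-coupled receptor gene Adgrg2 rose from 61.2 ± 8.14 to 1727 ± 254, and Phex, which encodes an endopeptidase linked to phosphate handling, from 72.5 ± 26.5 to 1468 ± 406 (SD, n = 3). Ntrk3, which encodes the receptor of neurotrophin 3, rose by 4.10 ± 0.23, and Piezo2, the gene of a mechanically gated channel, by 3.67 ± 0.27. With the mean of all probe sets the changes were 4.03 for Slc26a7, 3.05 for Scara5, 2.29 for Tm4sf1, 2.24 for Phex, 1.33 for Ntrk3 and 2.33 for Piezo2. With the higher floor Tm4sf1 changed by 3.60, Ntrk3 by 2.41 and Piezo2 by 2.21. Ntrk3 was above the filter in the E14.5 arrays only.

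Among membrane genes that fell, Igdcc3, a member of the immunoglobulin superfamily, led with 2658, 3294 and 1486 at E11.5 against 69.0, 126 and 117 at E14.5 (-4.55 ± 0.32, limma adjusted p = 9.7e-06). Its E12.5 mean was 360. Gja3, which encodes a connexin of gap junctions, fell from 353 ± 48.0 to 33.6 ± 14.3, and Car14, a membrane-bound carbonic anhydrase gene, from 1906 ± 247 to 345 ± 32.3 (SD, n = 3). Acvr2b, which encodes a type II receptor of activins, fell by 2.30 ± 0.16, Ly75, an endocytic lectin receptor gene, by 2.00 ± 0.30. Igsf9, an immunoglobulin superfamily gene, changed by -1.80 ± 0.20. These 6 genes were picked among called falls without overlap between the stages. All 84 called membrane falls were without overlap, as were 2018 of the 2045 over all genes. With the mean of all probe sets Igdcc3 changed by -2.65, Gja3 by -1.84 and Acvr2b by -1.41, and with the higher floor Gja3 by -1.95. In the mitochondrial carrier group Slc25a13, which encodes an aspartate and glutamate carrier, fell most, from 613 ± 53.9 to 210 ± 22.9 (SD, n = 3).

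**Figure D4:**
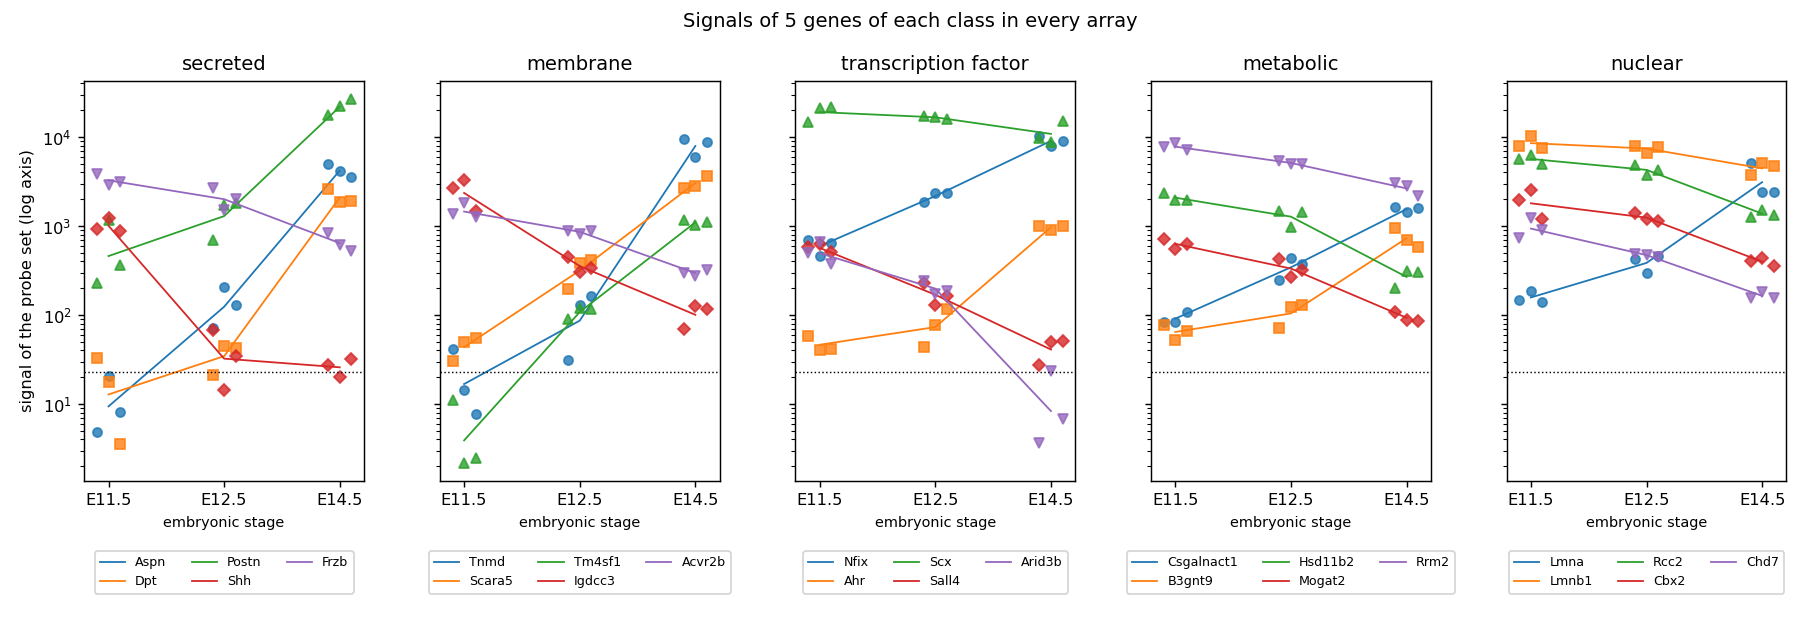
Signal (y axis, log scale) of 5 genes of each class in every array by embryonic stage (x axis); points are arrays, lines join the geometric means of the stages, and the dotted line is the floor of 22.7. Aspn, Tnmd and Tm4sf1 start at or near the floor, whereas Postn, Nfix and Lmna start above it, and Shh and Arid3b end next to it.

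Transcription factor genes split by family. No Hox gene rose and 15 of 24 tested fell (median -0.95), and of 9 T-box genes 6 fell and none rose (median -0.82). The large family of Zfp, Zbtb, Zscan and related zinc finger genes had 76 of 362 lower, a share near the 17.7% of all genes, and 32 higher (median -0.19). In the other direction, 21 of 41 bZIP genes rose and 2 fell (median 0.84), and 10 of 23 nuclear receptor genes rose and 3 fell (median 0.61), against 22.9% higher among all genes. Forkhead genes, with 6 of 21 higher and none lower (median 0.32), had a share of rises of 28.6%, near that of all genes. Homeobox genes outside the Hox clusters had 12 of 58 higher and 20 lower, and bHLH genes 17 of 57 higher and 12 lower.

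The mean log2 signal of the 24 Hox genes across arrays A, B and C was 9.29, 9.10 and 9.49 at E11.5 and 8.05, 8.48 and 8.46 at E14.5. The stages did not overlap. Hoxc10, a gene of posterior position in the cluster order, fell most, from 1730, 1046 and 1106 to 208, 285 and 371 (-2.17 ± 0.27, limma adjusted p = 0.00025). Hoxd13, a gene of the most distal limb that was chosen after its values were seen, read 6099, 4689 and 5685 at E11.5 and 5554, 5216 and 5301 at E14.5. Its change of -0.03 ± 0.14 was not called, and its E12.5 mean was 10076. Tbx22, a T-box gene, fell from 219 ± 165 to 40.2 ± 20.4 (SD, n = 3), with a single high E11.5 array at 409, and its call was lost with the higher floor (-1.03, limma adjusted p = 0.0553).

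The largest falls of the class lay outside the Hox and T-box families. Arid3b, which encodes an AT-rich DNA-binding protein, fell from 496, 655 and 374 to 3.62, 23.5 and 6.84 (-4.43 ± 0.21, limma adjusted p = 1.3e-06), where 2 of the E14.5 arrays are below the floor. Sall4, a zinc finger gene of limb bud patterning, fell by 3.79 ± 0.28, and the zinc finger genes Zic5 and Zic2 changed by -4.001 ± 0.32 and -2.89 ± 0.23. The orphan nuclear receptor gene Nr2f1 read 2503, 7106 and 2414 and then 311, 553 and 582, so that its E11.5 arrays differed among themselves by more than the other genes of this group. Mycn, a proto-oncogene of dividing progenitors, fell from 2260 ± 614 to 481 ± 64.9, and Sox11 from 12286 ± 1777 to 4740 ± 513 (SD, n = 3). The homeobox gene Evx1 fell by 2.68 ± 0.36. With the higher floor Arid3b changed by -2.45 and Evx1 by -1.53, and with the mean of all probe sets Arid3b changed by -2.17.

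Nfix, the gene of a nuclear factor I protein, was the brightest of the leading risers among transcription factors, at 695, 465 and 650 and then 10230, 8011 and 9027 (3.93 ± 0.18, limma adjusted p = 1.3e-06). Ahr, which encodes the aryl hydrocarbon receptor, read 58.6, 40.9 and 41.6 and then 1000.2, 912 and 996. Zfp385b went from values all below the floor to 680 ± 307 (SD, n = 3), and Bcl6, a repressor gene, rose by 3.69 ± 0.34. Nr3c1, which encodes the glucocorticoid receptor, rose by 3.27 ± 0.19 and led the nuclear receptors, and Foxf2, which led the forkhead genes, by 2.73 ± 0.40. The homeobox gene Irx1 went from 131 ± 87.6 to 762 ± 102 (SD, n = 3) and had an E12.5 mean of 776. With the higher floor the change was 2.82 for Zfp385b and 2.12 for Bcl6, and with the mean of all probe sets 2.68 for Zfp385b, 2.29 for Ahr and 1.36 for Foxf2.

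The bZIP genes did not rise evenly over the arrays. Their mean log2 signal across arrays A, B and C was 8.89, 8.36 and 8.58 at E11.5 and 10.27, 9.65 and 9.499 at E14.5. Fosl2, which encodes an AP-1 subunit, read 99.0, 25.5 and 26.98 and then 2175, 413 and 290 (3.97 ± 0.93, limma adjusted p = 0.0081). Another Fosl2 probe set that passed the filter changed by -0.14, the only case of opposite sign among 80 further probe sets of 58 named genes. Atf3, a stress-responsive bZIP gene, read 87.9, 20.4 and 30.8 and then 1636, 300.2 and 193, and the zinc finger gene Klf2 125, 59.6 and 51.7 and then 5318, 1009 and 410. In all 3 of these genes the A array was the highest at both stages. Without E14.5 A the changes were 3.08 for Fosl2, 2.61 for Atf3 and 3.14 for Klf2. With the higher floor Atf3 changed by 2.33, and with the mean of all probe sets Fosl2 by 1.92. Creb3l1, a bZIP gene whose product is held in the membrane of the endoplasmic reticulum, was steadier, at 29.2, 71.8 and 53.1 and then 595, 549 and 731 (3.69 ± 0.36). Cebpb rose by 2.81 ± 0.34. Atf3, Creb3l1 and Cebpb were chosen after their values were seen.

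Scx itself fell from 14811, 21375 and 21828 to 9811, 8692 and 14952 (-0.81 ± 0.22, limma adjusted p = 0.016), with overlap between the stages, in cells that had been sorted on its reporter. Leaving out any 1 array of these stages other than E11.5 A and E14.5 C ended that call, with an adjusted p of up to 0.0589. Mkx, which encodes the tendon homeodomain factor Mohawk, rose from 429 ± 73.4 to 1731 ± 311 (SD, n = 3). Myog, the gene of the muscle differentiation factor myogenin, rose by 1.41 ± 0.27. Sox9, the gene of the chondrogenic factor, read 2625, 2203 and 2404 and then 2435, 1211 and 582, a change of -1.01 ± 0.41 that was not called (limma adjusted p = 0.077). With E14.5 A left out its change was -1.52 and was called (limma adjusted p = 0.0040), as it was under 5 other alternatives. With E14.5 C left out it was -0.49 and not called (0.199).

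**Figure D5:**
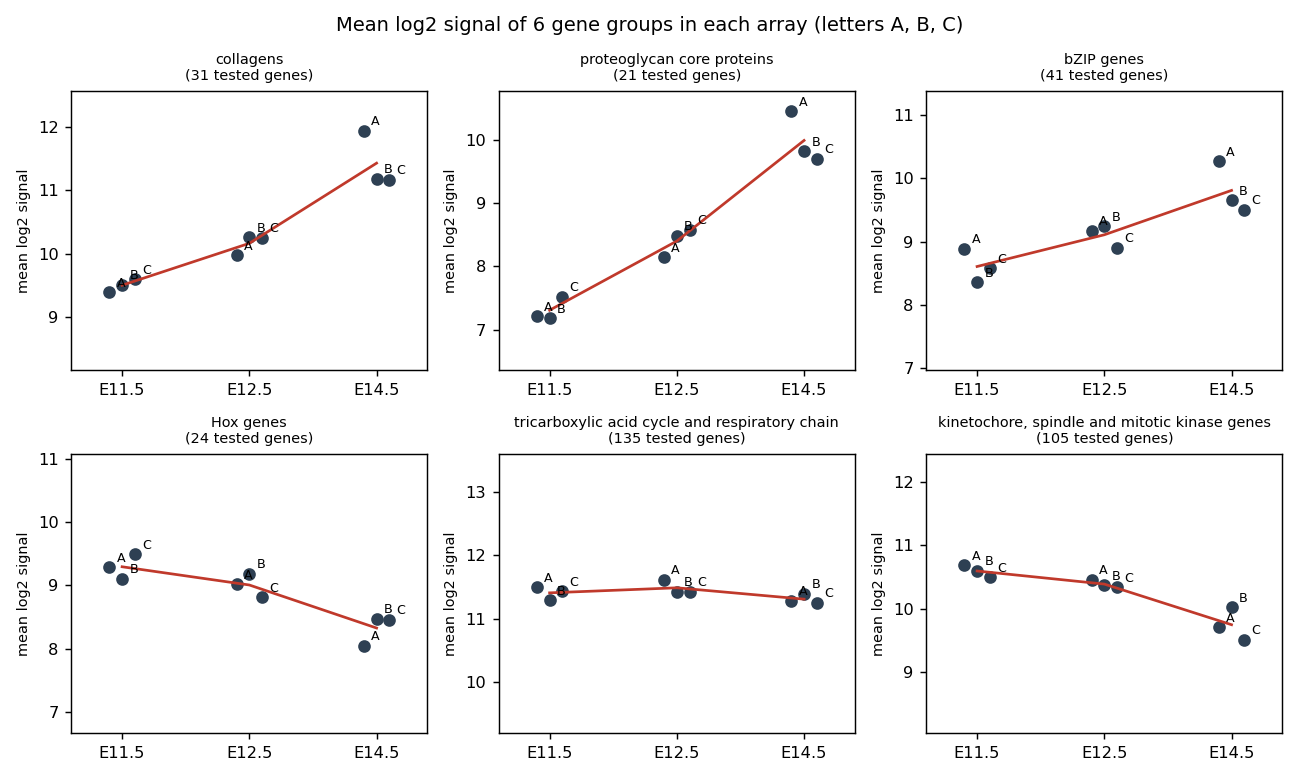
Mean log2 signal (y axis) of the tested genes of 6 groups in each array, labelled by its letter, by embryonic stage (x axis); lines join the stage means. Collagens, proteoglycans and bZIP genes are highest in E14.5 A, Hox and mitosis genes are lower in every E14.5 array than in any E11.5 array, and the respiratory chain genes overlap.

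Metabolic genes moved by pathway rather than as a class. Enzymes that build or modify glycans, glycosaminoglycans and collagen rose in 81 of 190 cases and fell in 14 (median 0.40). Of 146 genes of fatty acid and lipid metabolism 44 rose and 14 fell (median 0.20). Nucleotide metabolism went the other way, with 24 of 77 lower and 9 higher (median -0.22), as did amino acid, one-carbon and polyamine metabolism, with 20 of 74 lower and 14 higher (median -0.23). Among the metabolic groups, the tricarboxylic acid cycle and respiratory chain had the lowest share of calls: 5 of 135 rose and 18 fell (median -0.13), against 22.9% and 17.7% of all tested genes. Their mean log2 signal in arrays A, B and C was 11.503, 11.29 and 11.44 at E11.5 and 11.29, 11.40 and 11.25 at E14.5, with overlap. Glycolysis, the pentose phosphate pathway and glycogen had 23 of 72 higher and 14 lower (median 0.08).

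The leading risers of the class included enzymes that make the sugar chains of matrix proteoglycans. Csgalnact1, which encodes an enzyme that starts chondroitin sulfate chains, read 84.0, 82.9 and 109 at E11.5 and 1638, 1425 and 1589 at E14.5 (4.09 ± 0.21, limma adjusted p = 1.9e-06). Chsy3, a chondroitin synthase gene, read 22.9, 34.2 and 36.9 and then 426, 471 and 500.2. Arsi, an arylsulfatase gene, rose from 75.5 ± 24.6 to 932 ± 298, and B3gnt9, a glycosyltransferase gene, from 65.3 ± 12.04 to 744 ± 195 (SD, n = 3). Aldh1a3, a gene of retinoic acid synthesis, rose by 3.59 ± 0.23 and Adh1, an alcohol dehydrogenase gene, by 3.30 ± 0.18. Sgms2, which encodes a sphingomyelin synthase, led the lipid genes at 3.27 ± 0.30. With the higher floor the change was 2.36 for Chsy3, 1.69 for Aldh1a3 and 1.70 for Adh1. With the mean of all probe sets it was 2.47 for Chsy3, 1.78 for Aldh1a3 and 1.91 for Sgms2. Adh1 was above the filter in the E14.5 arrays only.

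Hsd11b2, which encodes the enzyme that inactivates glucocorticoids, fell most, from 2338, 1955 and 1976 to 202, 315 and 303 (-2.96 ± 0.22, limma adjusted p = 1.2e-05), while the receptor gene Nr3c1 rose, as given above. Gldc, a gene of glycine breakdown, fell from 298 ± 59.6 to 41.98 ± 12.54, Mogat2, an acylglycerol synthesis gene, from 634 ± 76.7 to 93.8 ± 13.1, and Elovl2, a gene of very long fatty acid synthesis, from 530 ± 49.3 to 129 ± 18.4 (SD, n = 3). Cth, which encodes an enzyme of cysteine synthesis, read 1170, 1125 and 931 and then 319, 309 and 306. Rrm2, the ribonucleotide reductase subunit gene of dividing cells, fell by 1.56 ± 0.15 and led the nucleotide genes. All of these but Rrm2 were picked among called falls without overlap between the stages, and Rrm2 did not overlap either. Of the 120 called metabolic falls 118 were without overlap, as were 2018 of the 2045 over all genes. With the higher floor Gldc changed by -1.70.

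In every nuclear group more genes fell than rose, whereas 17.7% of all tested genes were lower and 22.9% higher. Of 105 tested genes of the kinetochore, the spindle and mitotic kinases 77 fell and none rose (median -0.89), and of 78 DNA replication genes 59 fell and 2 rose (median -0.75). Nuclear pore and transport genes had 37 of 58 lower and none higher (median -0.56), and DNA repair and checkpoint genes 41 of 90 lower and 2 higher (median -0.54). Other nuclear groups fell as well. Nucleolus and ribosome assembly had 51 of 105 lower and none higher (median -0.45), splicing and nuclear RNA binding 92 of 193 lower and 8 higher (median -0.44), and RNA polymerases with general transcription factors 59 of 137 lower and 4 higher (median -0.38). Chromatin regulators had 79 of 241 lower and 20 higher (median -0.27), and cyclins, CDKs and their inhibitors 20 of 62 lower and 7 higher (median -0.27). The median changes of the groups ran from -0.89 to -0.27, so most single genes lost less than one log2 unit.

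Chd7, which encodes a chromatin remodeller, had the largest fall of the class, from 738, 1222 and 909 to 156, 183 and 155 (-2.51 ± 0.18, limma adjusted p = 1.1e-05). Cbx2, the gene of a Polycomb protein, fell from 1882 ± 655 to 399 ± 39.4, and Rcc2, a gene of chromosome condensation and mitosis, from 5693 ± 649 to 1382 ± 125 (SD, n = 3). The DNA repair nuclease genes Eme1 and Exo1 fell by 1.99 ± 0.17 and 1.77 ± 0.16, and Dna2, which encodes a nuclease and helicase of replication, by 1.79 ± 0.18. Cenpj, a centriole assembly gene, led the mitosis group at -1.70 ± 0.14. The proliferation marker gene Mki67, chosen after its values were seen, fell from 8091 ± 1839 to 4205 ± 763 (SD, n = 3; -0.94 ± 0.22).

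A promoter motif of cell cycle genes was frequent among the mitosis genes. TTTGAA, the core letters of the cell cycle genes homology region, and CCAAT, which often lies upstream of it, were searched on both strands from 250 bases before to 50 after the start. TTTGAA was found in 47.5% of the 80 mitosis genes with a single RefSeq promoter, in 11.3% of all 7429 tested genes with one and in 18.5% of the 22862 such genes of the whole table. CCAAT was found in 57.5%, 39.4% and 38.2%. CCAAT was not particular to mitosis genes, as 58.5% of 53 replication genes held it. The same was true of 51.2% of 381 nuclear genes that fell, mitosis genes included. Of 56 mitosis genes that fell, 55.4% held TTTGAA, against 29.2% of 24 that were not called and 16.9% of 325 other nuclear genes that fell. Replication genes, at 13.2% of 53, were near the share of all tested genes. The 120 bases before the start are shown for 4 mitosis genes that fell and hold both motifs there, the largest falls among 10 such genes once those of one chromosome were left out, 5′ to 3′ with both motifs in capitals, in either orientation. Kif22 lies on the minus strand at chr7:127042421-127042540, Cdc20 on the minus strand at chr4:118437344-118437463, Espl1 on the plus strand at chr15:102296173-102296292 and Ube2c on the plus strand at chr2:164769809-164769928 (RefSeq, GRCm38.p6).
Kif22: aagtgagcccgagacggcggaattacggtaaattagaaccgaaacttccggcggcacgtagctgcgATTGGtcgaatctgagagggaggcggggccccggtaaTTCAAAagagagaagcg
Cdc20: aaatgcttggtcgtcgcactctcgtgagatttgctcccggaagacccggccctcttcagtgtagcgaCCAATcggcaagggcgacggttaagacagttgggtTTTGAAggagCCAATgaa
Espl1: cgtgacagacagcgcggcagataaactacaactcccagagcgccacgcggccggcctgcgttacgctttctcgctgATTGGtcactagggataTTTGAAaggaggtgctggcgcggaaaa
Ube2c: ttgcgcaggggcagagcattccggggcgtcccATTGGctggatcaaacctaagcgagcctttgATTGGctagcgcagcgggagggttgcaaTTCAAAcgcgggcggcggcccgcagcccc
The TTTGAA match begins 17, 18, 27 and 29 bases before the start in Kif22, Cdc20, Espl1 and Ube2c. A match is a description of these letters and not a measured site.

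These 4 genes, chosen by their promoters after values were seen, serve the passage through mitosis. Kif22, which encodes a kinesin that binds chromosomes, read 2550, 1975 and 1988 at E11.5 and 805, 1082 and 465 at E14.5 (-1.54 ± 0.29, limma adjusted p = 0.0026). Cdc20, an activator gene of the anaphase-promoting complex, read 4748, 3697 and 3398 and then 1768, 2014 and 1300.5. Espl1, which encodes separase, the protease that frees sister chromatids, fell by 1.22 ± 0.21, and Ube2c, which encodes the ubiquitin-conjugating enzyme of that complex, by 1.16 ± 0.21. Each was lower in every E14.5 array than in any E11.5 array, as were 530 of the 535 nuclear genes that fell. Among all called falls, 2018 of 2045 were without overlap. Over the whole mitosis group the mean log2 signal across arrays A, B and C was 10.69, 10.60 and 10.50 at E11.5 and 9.71, 10.02 and 9.51 at E14.5.

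Among the 46 nuclear genes that rose, Lmna had the largest change and was the one riser among 34 tested genes of condensin, cohesin and the lamina. It encodes the A-type lamins of differentiated cells and read 148, 187 and 141 and then 5162, 2435 and 2392 (4.30 ± 0.30, limma adjusted p = 9.0e-06). Lmnb1, the gene of a B-type lamin, chosen after its values were seen, fell from 8620 ± 1533 to 4481 ± 695 (SD, n = 3; -0.94 ± 0.17). The CDK inhibitor genes Cdkn2c and, chosen after its values were seen, Cdkn1c rose by 1.96 ± 0.30 and 0.77 ± 0.13, Cdkn1c from 11558 ± 555 to 19728 ± 1264 (SD, n = 3). After median centring of the arrays Cdkn1c was not called (limma adjusted p = 0.209). Cbx6, a Polycomb gene of the same family as Cbx2, rose from 1267 ± 219 to 4468 ± 702 (SD, n = 3). Jade2, a chromatin regulator gene, rose by 2.12 ± 0.19 and Tcea3, a transcription elongation factor gene, by 2.26 ± 0.39. With the mean of all probe sets Jade2 changed by 1.03, and with the higher floor Tcea3 by 1.05. Tcea3 was above the filter in the E14.5 arrays only. Gadd45b, a stress-induced gene, read 494, 96.5 and 283 and then 3314, 810 and 670. Its call (2.35 ± 0.68) was lost without E14.5 A (1.63, limma adjusted p = 0.0592), without E11.5 B (0.0711), with all genes tested (0.0781) and with a prior that was trended and robust (0.0533).

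Summed marker signals separated the stages for tendon and some other cell types, but not for cartilage, nerve and glia, or blood. The counts of called markers stand beside 22.9% higher and 17.7% lower among all tested genes. Of 6 tendon markers 5 rose and Scx fell, and their summed signal went from between 16448 and 23753 at E11.5 to between 29995 and 41284 at E14.5. Of 7 cartilage markers 4 rose and none fell. Their summed signal was between 15351 and 18021 at E11.5, and at E14.5 it was 64719, 15390 and 7399 in A, B and C, so the E14.5 arrays lay on both sides of the E11.5 range. Skeletal muscle markers (4 of 7 higher) summed to between 3197 and 5667 and then to between 8353 and 11342. Endothelial markers, of which 4 of 6 were tested and all 4 rose, summed to between 242 and 504 and then to between 949 and 1393. Of 6 bone markers 3 had a probe set naming a single gene, 2 were tested and 1, Alpl, rose. They summed to between 165 and 209 and then to between 299 and 1885. Much of the latter came from Ibsp, which was not tested and read 1291, 714 and 43.9 at E14.5, while Sp7 was not called (0.14).

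Macrophage markers (1 of 2 tested higher) summed to between 217 and 337 and then to between 454 and 533. Epidermal markers (3 of 5 tested higher, 1 lower) summed to between 916 and 1058 and then to between 1229 and 1433. Here too the shares among all tested genes were 22.9% higher and 17.7% lower. Nerve and glia markers overlapped between the stages, at 356 to 441 and 409 to 585 (1 of 3 tested higher, 1 lower). Blood markers overlapped too, at 543 to 3389 and 136 to 670, and 1 of 2 tested, the embryonic globin gene Hba-x, fell. No marker was at the floor in all 6 arrays, while Aif1 and Ibsp were there in each E11.5 array. The part of these cells in the class counts was not tested. Without E14.5 A, the array with the most cartilage signal, 245 secreted genes were higher and 11 lower, and 464 membrane genes were higher and 77 lower.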

How the data were processed

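The deposited values are signal intensities on a linear scale, 1 per probe set and array, which the authors computed with MAS5; the submitters' processing notes name Expression Console 1.1. Each array's mean after trimming 2% at either end was 500.0, and no scaling was added. Of 45101 probe sets, 34945 had 1 gene symbol; the probe set of highest mean log2 signal stood for a gene, an _x_at set only where no other existed. All 9 arrays were fitted in limma 3.58.1 (R 4.3.3) by stage, leaving 6 residual degrees of freedom, and the two-sided contrast was adjusted by Benjamini-Hochberg over 11575 genes; the script was tested on simulated data. Classes come from 50 symbol rules with 102 hand corrections.

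Within each class the text names genes from the 6 largest rises and falls among called genes without overlap, the leading called rise and fall of each group with at least 5 tested genes, and Scx, Tnmd, Mkx, Col1a1, Sox9 and Myog; others are said to be chosen after their values were seen. Members and lists were chosen with earlier results of these data known. Alternatives changed the floor, filter, scaling, probe set, samples, block, prior, weights or 1 array. Motifs were searched in RefSeq promoters of genes with a single one.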

Additional observations from a re-analysis of the deposited data

How the results depend on the processing

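Over 17 alternatives, 115 of 132 named genes kept their direction and their side of the threshold, and 17 did not under at least 1; Hoxd13, not called in any direction, turned from -0.03 to 0.037 after quantile normalization, ranged from -0.14 to 0.053 without 1 array and was 0.026 without the letter A arrays. Median centring of the arrays, which shifted the median of all tested genes by -0.20, left 1275 genes higher and 1066 lower, with 295 membrane genes higher, 79 transcription factor genes higher and 113 lower, 81 metabolic genes higher and 44 lower, and 16 nuclear genes higher and 285 lower; the secreted median was then 1.19, the nuclear -0.66 and the metabolic, positive otherwise, -0.11, and the cause of the fewer calls was not tested. Without the letter A arrays, which leaves fewer samples, 1260 genes were lower, 62 metabolic and 349 nuclear. Without 1 array, counts ranged from 2306 to 2413 higher and from 1536 to 1818 lower over all genes, and lower metabolic genes from 72 (without E11.5 A) to 102, with 78 without E14.5 C.

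With the letters as a replicate block 2895 genes were higher and 2367 lower. Arrays of the same letter had deviations correlated at 0.313, -0.00516 and 0.238 between E11.5 and E14.5, and the letters were not taken as pairs. Classes from RefSeq proteins, planned as an alternative, were not run, and no protein sequences were used here.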
